A study of Mus musculus with 7 samples.

Results

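The genes described here are the Eph receptors, ephrins, semaphorins, plexins and neuropilins, which are guidance ligands and receptors, both membrane-bound and secreted. They were chosen by name, with no measured value used to include or leave out a gene, though earlier results of these data were known. Every protein-coding mouse gene annotated as an EphA or EphB receptor, an ephrin-A or ephrin-B ligand, a semaphorin of classes 3 to 7, a plexin or a neuropilin was taken. This gave 53 of the 55335 annotated genes, made up of 14 Eph receptors, 8 ephrins, 20 semaphorins, 9 plexins and 2 neuropilins. Expression was measured in cultured mouse neural stem cells (NSCs) of the strain FVB/N, kept dividing in stem cell medium with the growth factors EGF and bFGF. There were 4 wild-type (WT) samples and 3 samples carrying the MommeD1 null allele of Smchd1 (Smchd1-null), a gene for a chromatin repressor known for its part in X inactivation and imprinting. Polyadenylated RNA was converted to cDNA, sequenced as nanopore long reads without amplification, and counted per gene. Sequencing was done in 2 batches with different versions of the cDNA kit: batch 1 held WT replicate 2 with Smchd1-null replicates 1 and 2, batch 2 held Smchd1-null replicate 3 with WT replicates 3 and 4, and both held WT replicate 1.

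Eph receptors are receptor tyrosine kinases that bind ephrins on the surface of neighbouring cells, and signals pass into both cells. Ephrin-A ligands are held in the membrane by a lipid anchor, and ephrin-B ligands span it. Class 3 semaphorins are secreted and act through neuropilins, which bind them, and plexins, which signal; most other semaphorins are bound to the membrane and act on plexins directly. In the developing brain these proteins steer axons and migrating neurons, keep cell populations apart, and act on the proliferation of neural progenitors. The design asks whether their expression in NSCs differed when Smchd1 was lost.

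The 7 libraries held between 2.74 and 7.74 M counts (M, 1e6), and the 53 genes took between 0.0828% and 0.102% of them, or 2442 to 6653 counts per sample. Smchd1 itself was lower in every Smchd1-null sample, with 17.3, 12.8 and 18.4 counts per M of TMM-scaled library size (CPM) against 66.9, 56.4, 74.7 and 55.7 CPM in WT, a difference of -2.15 on the log2 scale (SE 0.18, adjusted p = 0.00011, limma). All 12 NSC markers checked were expressed, with a summed level of 9732 to 14459 CPM in WT and 9382 to 10840 CPM in Smchd1-null samples. WT replicate 4 stood apart in the 8 markers of the oligodendrocyte lineage, which summed to 768 CPM there, 146 to 287 CPM in the other WT samples and 189 to 199 CPM in Smchd1-null samples, and in the 6 astrocyte markers, which summed to 1111 CPM there, 411 to 567 CPM in the other WT samples and 306 to 533 CPM in Smchd1-null samples. Markers of both kinds also ran with genotype: the log2 fold changes of all 5 tested astrocyte markers were below 0 (median -0.81), with Aldoc lower at an adjusted p of 0.233, and those of 5 of 6 tested oligodendrocyte lineage markers were below 0 (median -0.58). Of the 12 NSC markers, 5 were lower and 1 was higher at an unadjusted p under 0.05 in limma's fit (median -0.15). The 8 neuron markers summed to 372.04 to 419.78 CPM in WT and 361.6 to 381.74 CPM in Smchd1-null samples. Of the 6 tested, only Dcx passed that unadjusted threshold, being lower (-1.38, adjusted p = 0.323). Dcx was at 36.2 CPM in WT replicate 4, 3.15 to 11.97 CPM in the other WT samples and 3.003 to 4.546 CPM in Smchd1-null samples. Map2 differed little (-0.045, adjusted p = 0.863). Markers of microglia, endothelium and fibroblasts were at or under 4.63 CPM in sum in every sample, with Tmem119 and Lum at 0 throughout. The sources do not say whether the samples came from separate animals or cultures, so p-values measure only the spread between these samples. In bulk RNA, fewer cells of a type and less RNA per cell cannot be told apart.

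Of the 53 genes, 39 (73.6%) had enough counts to be tested, and these held 99.0% of the 30362 counts of all 53. The 14 genes that were removed had between 0 and 69 counts over the 7 samples, and the lowest total of a tested gene was 61. Among Eph receptors, Epha8 had 0 counts in every sample, which allows a level of up to 0.0901 counts per M over all samples. Epha6 had 2 counts, both in Smchd1-null replicate 2. Epha1 had 0 counts in all WT samples and 1, 2 and 1 in Smchd1-null replicates 1 to 3, and one of its exons overlaps 156 bases of Zyx on the opposite strand, a gene with 2222 counts, so those few reads are uncertain. Epha3 (27 counts in all) and Epha10 (28), which like Ephb6 lacks an active kinase, were also removed. So were the ephrins Efna1 (53) and Efna5 (27), the secreted semaphorins Sema3b (9), Sema3e (18), Sema3f (28) and Sema3g (8), and the class 4 semaphorins Sema4a (33), Sema4d (69) and Sema4f (8). Apart from Epha1, Epha6 and Epha8, the removed genes had counts in both genotypes. Sema4f had 1 count in WT replicate 4 and 7 in Smchd1-null replicate 2, and none elsewhere. Epha3, Efna1, Sema3f, Sema4a and Sema4d had their highest WT count in WT replicate 4, at 12, 18, 10, 18 and 27.

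Levels of different genes were compared as CPM per kb of the deposited gene length. The study reported that gene length was only weakly associated with expression in these unfragmented reads, so this division places long genes lower. Of the top 10 genes in WT by this measure, 7 were also in the top 10 by CPM. By CPM, Epha5 ranked 3 (83.8 CPM), Efna2 ranked 12 (19.7 CPM) and Efna4 ranked 25 (8.12 CPM). Plxnb2, a plexin for class 4 semaphorins that is known from dividing neuronal precursors, was the highest in WT at 21.5 ± 3.87 CPM per kb (SD, n = 4), and its 4 samples lay above those of the next gene. Sema6d, a transmembrane ligand of plexin-A1, followed at 10.9 ± 1.47, then Efna2 at 9.24 ± 1.82, Sema5b at 7.26 ± 1.07, Plxnb1 at 7.20 ± 0.99, Efnb1 at 5.70 ± 0.66, Plxnb3 at 5.46 ± 2.85, Efna4 at 5.08 ± 1.68, Epha5 at 5.01 ± 0.67 and Sema6a at 4.78 ± 1.08 CPM per kb. From Sema6d down, the WT samples of each gene overlapped those of its neighbour in the order, so the order there is not resolved. In Smchd1-null samples Plxnb2 was again highest, at 21.6 ± 1.28 CPM per kb (SD, n = 3), and Efna2 stood next at 12.8 ± 1.87, above Sema6d at 8.48 ± 0.80. Without the division by length, Sema6d was above Efna2 there, at 89.5 against 27.2 CPM.

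**Figure D1:**
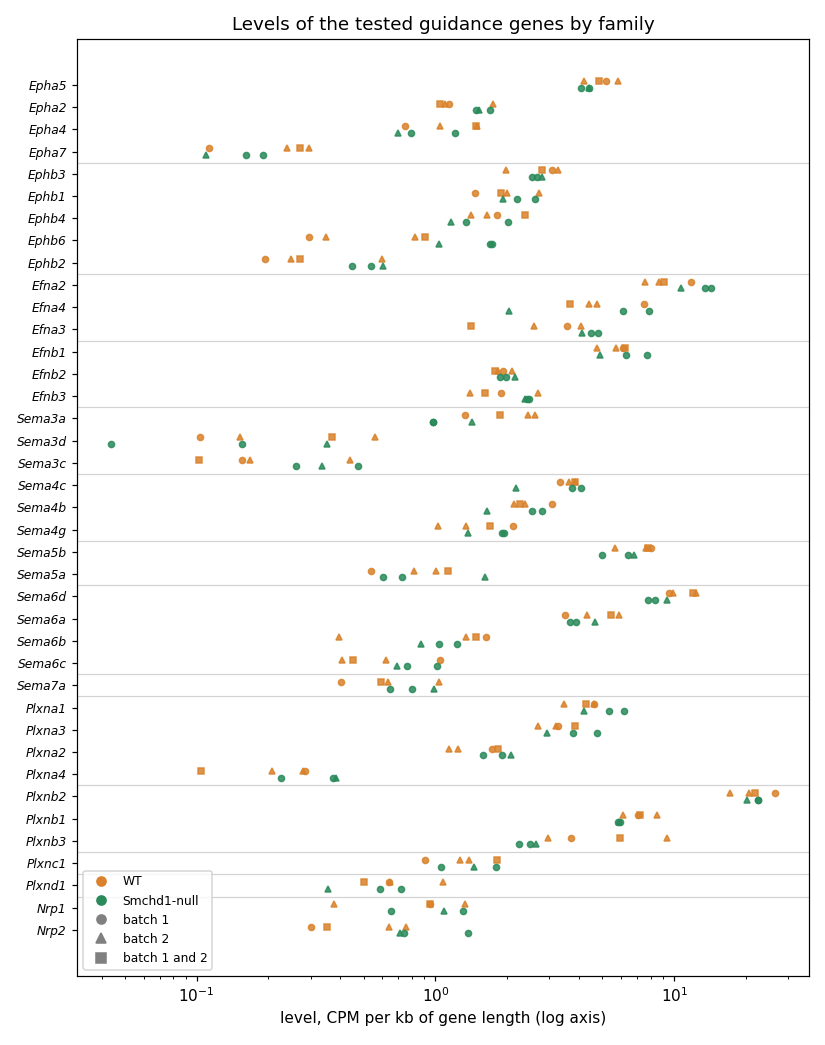
Level of each of the 39 tested guidance genes in every sample, as CPM per kb of gene length on a log axis, grouped by family and ordered within a family by the WT mean (orange, WT; green, Smchd1-null; circles, batch 1; triangles, batch 2; squares, both). Plxnb2 lies above the other genes at 21.5 CPM per kb in WT, and in most rows the points of the genotypes interleave.

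The share of the highest member in its family's level, in CPM per kb, varied. Shares of plain CPM differ, with Epha5 at 83.8 of the EphA sum of 103.1 CPM in WT. Among EphA receptors Epha5 made up 63.5 ± 5.36% of the family's summed CPM per kb in WT and 59.4 ± 3.05% in Smchd1-null samples. Efna2 held 51.2 ± 6.15% of the ephrin-A level in WT, and Efnb1, the X-linked ephrin, 60.0 ± 6.88% of the ephrin-B level. Among the semaphorins, Sema5b held 89.1 ± 3.82% of class 5, Sema6d 62.3 ± 1.76% of class 6 and Sema4c 45.2 ± 6.02% of class 4. Sema3a held 71.9 ± 1.81% of class 3 in WT and 55.8 ± 3.16% in Smchd1-null samples. Plxna1 led the plexin-A receptors with 46.2 ± 3.14%, Plxnb2 the plexin-B receptors with 63.0 ± 10.1% and Nrp1 held 62.5 ± 17.8% of the neuropilin level, with Nrp2 above it in WT replicate 3 and Smchd1-null replicate 1. The EphB receptors had no dominant member, with Ephb3 at 37.0 ± 5.74%.

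Between genotypes, 2 of the 39 tested genes passed an adjusted p of 0.25 (5.13%; 1.08% of all 13305 tested genes did), and none passed 0.05 (0.0902% of all genes). The gene that fell was 1 of the 39 (0.609% of all genes fell), and the gene that rose was also 1 (0.474%). Sema3a, a secreted repellent of growing axons that acts through neuropilin-1 and plexin-A receptors, fell in Smchd1-null samples. Ephb6, an EphB receptor whose kinase domain is inactive, rose. At an unadjusted p under 0.05 there were 8 genes in limma's fit (20.5%; 13.9% of all genes), 5 of them higher in Smchd1-null samples (7.11% of all genes) and 3 lower (6.74%). The genotypes did not overlap for 5 genes (12.8%; 5.53% of all genes), with Ephb6 and Efna3 higher (2.52%) and Plxnb3, Plxnb1 and Sema6d lower (3.01%). Log2 fold changes of 15 of the 39 were below 0 (38.5%; 49.4% of all genes), and their median was 0.15, against 0.0049 over all tested genes. The count at an adjusted p under 0.25 depended on single libraries. It was 0 without WT replicate 1, WT replicate 4, Smchd1-null replicate 1 or Smchd1-null replicate 2, 1 without WT replicate 3, 8 without WT replicate 2 and 11 without Smchd1-null replicate 3. The number of all tested genes that passed moved too. It was 2924 of 12891 without WT replicate 2, 3153 of 13395 without Smchd1-null replicate 3, and 1 to 43 without any other sample.

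**Figure D2:**
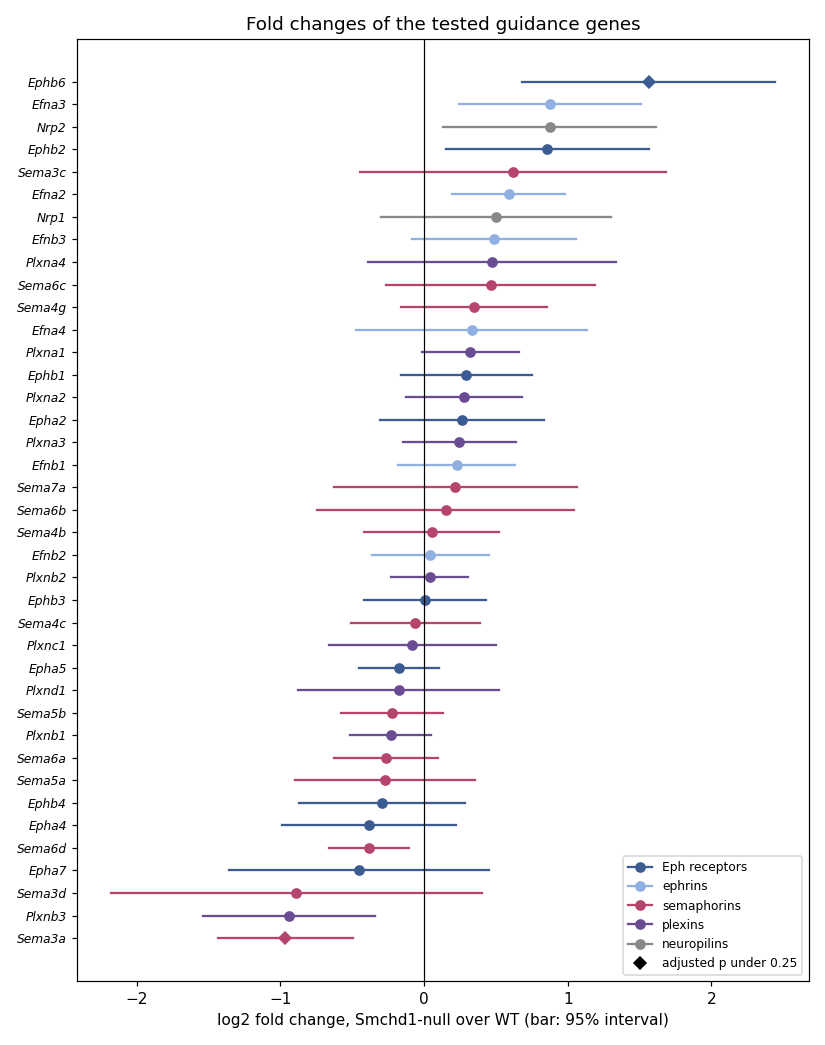
Log2 fold change of Smchd1-null over WT for each of the 39 tested guidance genes (points) with its 95% interval (bars), from the limma fit over all 13305 genes, coloured by protein family. Diamonds mark Ephb6 (1.56) and Sema3a (-0.96), the genes with an adjusted p under 0.25; most other intervals include 0.

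For Sema3a and Ephb6 the first 250 bases of a RefSeq promoter window of 300 bases are shown. These are the genes that passed the threshold, and the windows differ in CG dinucleotides, the sites at which vertebrate DNA is methylated. The sequences are RefSeq's on GRCm38.p6, the C57BL/6J reference and not FVB/N, written 5′ to 3′ with every CG in capitals. That of Sema3a is chr5:13396534-13396783 on the plus strand, which lies inside the gene as Gencode draws it (chr5:13125414-13602565), so other starts exist. That of Ephb6 is chr6:41605261-41605510 on the plus strand, and its end runs past the Gencode start at 41605482.
Sema3a: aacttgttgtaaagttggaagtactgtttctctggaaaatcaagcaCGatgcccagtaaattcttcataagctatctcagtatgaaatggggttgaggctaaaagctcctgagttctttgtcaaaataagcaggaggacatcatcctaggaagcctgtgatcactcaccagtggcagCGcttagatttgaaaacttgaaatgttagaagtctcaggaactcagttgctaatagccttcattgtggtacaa
Ephb6: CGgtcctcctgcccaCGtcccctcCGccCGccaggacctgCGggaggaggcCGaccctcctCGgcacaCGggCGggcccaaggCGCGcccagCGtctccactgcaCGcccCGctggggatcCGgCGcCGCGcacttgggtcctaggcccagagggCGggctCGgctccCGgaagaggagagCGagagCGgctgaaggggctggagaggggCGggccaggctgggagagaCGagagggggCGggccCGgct
These 250 bases hold 2 CG dinucleotides for Sema3a and 27 for Ephb6. Over the full 300 bases of the RefSeq windows the numbers were 2 and 34, with GC contents of 41.3% and 76.3%. Such windows existed for 47 of the 53 genes, 61 in all, and their median was 20 CG dinucleotides, against 7 over 32851 mouse promoters. At least 10 were found in 77.0% of the guidance gene windows and in 43.5% of all windows. The Sema3a window inside the gene was at the low end of the guidance gene windows. No window at the Gencode start of Sema3a was scored. The motif TATAAA, read on both strands, was in 1.64% of the windows of guidance genes and 13.6% of all windows. Methylation was not measured here.

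Sema3a was the only one of the 7 class 3 semaphorins above 5 CPM in any sample. Its level was 25.9, 18.4, 33.8 and 36.4 CPM in WT replicates 1 to 4 and 13.5, 13.6 and 19.7 CPM in Smchd1-null replicates 1 to 3. The genotypes overlapped, since Smchd1-null replicate 3 was above WT replicate 2, but within each batch the Smchd1-null samples were the lower ones. The log2 fold change was -0.96 (SE 0.22, 95% interval -1.43 to -0.49, adjusted p = 0.176, limma). The difference in mean log-CPM was -0.43 within batch 1 and -0.82 within batch 2, leaving out the sample that was in both. With the share of batch 2 as a covariate the fold change was -0.62, with an adjusted p of 0.234. For WT replicate 1 that share was assumed, at equal parts of both batches. The call at 0.25 held without WT replicate 2 (-1.12, adjusted p = 0.0417) or Smchd1-null replicate 3 (-1.07, adjusted p = 0.0350), and it was lost without any one of the other 5 samples, where the fold change was between -1.02 and -0.73. The fits that kept it called 2924 of 12891 and 3153 of 13395 genes. Sema3d, the neighbour of Sema3a at a gap of 0.537 Mb on chromosome 5, had 2.54 ± 1.80 CPM in WT and 1.58 ± 1.3 CPM in Smchd1-null samples (log2 fold change -0.89, SE 0.60, adjusted p = 0.501). Sema3c, farther along the same chromosome, had 1.55 ± 1.08 and 2.54 ± 0.77 CPM (0.62, SE 0.50, adjusted p = 0.568). The astrocyte and oligodendrocyte lineage markers, with median fold changes of -0.81 and -0.58, ran in the same direction as Sema3a, and their part in its values was not tested. The summed level of the class was 34.6 ± 9.90 CPM in WT and 21.5 ± 4.43 CPM in Smchd1-null samples, 62.3% of WT.

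The receptors that bind class 3 semaphorins did not pass the threshold. Nrp2, which binds Sema3f and also VEGF family members, had 4.15, 3.55, 7.60 and 8.92 CPM in WT and 16.1, 8.78 and 8.44 CPM in Smchd1-null samples. Smchd1-null replicate 1 was the highest, and the other 2 Smchd1-null samples lay within the WT range. Its log2 fold change was 0.87 (SE 0.35, adjusted p = 0.322), and the difference was 1.63 log-CPM within batch 1 and 0.03 within batch 2. Nrp1, the receptor of Sema3a, was at 8.83 ± 3.86 CPM in WT and 9.92 ± 3.25 CPM in Smchd1-null samples (0.50, SE 0.37, adjusted p = 0.539). All 4 plexin-A receptors had a log2 fold change above 0, from 0.25 for Plxna3 to 0.47 for Plxna4, with adjusted p-values of 0.376 or more. Their summed level was 101.6, 101.1, 90.7 and 77.0 CPM in WT and 131.0, 108.7 and 102.0 CPM in Smchd1-null samples, with no overlap between the genotypes. Without TMM scaling, a setting added after seeing the data, WT replicate 1 was at 107.2 CPM and Smchd1-null replicates 2 and 3 at 106.4 and 102.9 CPM, so the genotypes overlapped. Plxna1, the largest of them in level, had 38.6, 41.8, 41.9 and 31.4 CPM in WT and 55.6, 48.4 and 37.9 CPM in Smchd1-null samples (0.32, SE 0.16). Its Smchd1-null replicates 1 and 2 were above all WT samples and replicate 3 was inside their range.

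Ephb6 was a low-level gene, with 14, 5, 5 and 18 counts in WT and 17, 49 and 18 counts in Smchd1-null samples. This made 3.42, 1.11, 1.31 and 3.09 CPM in WT and 6.38, 6.52 and 3.90 CPM in Smchd1-null samples, with no overlap between the genotypes. The log2 fold change was 1.56 (SE 0.41, 95% interval 0.68 to 2.44, adjusted p = 0.233, limma). Within batch 1 the difference was 2.16 log-CPM and within batch 2 it was 0.81. As for Sema3a, the call at 0.25 held without WT replicate 2 (1.40, adjusted p = 0.110) or Smchd1-null replicate 3 (1.63, adjusted p = 0.0569) and was lost without any one of the other samples, with fold changes between 1.23 and 1.86. Again, the fits that kept it called 2924 of 12891 and 3153 of 13395 genes.

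**Figure D3:**
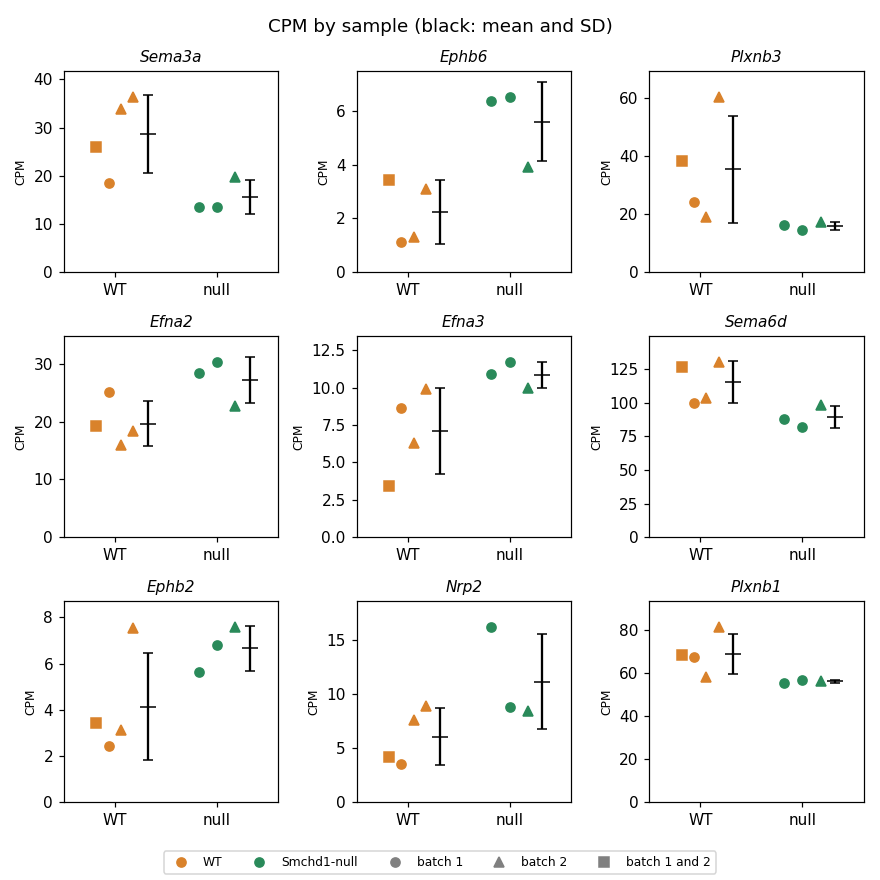
CPM in each sample for the 9 guidance genes with an unadjusted p under 0.05 or with genotypes that do not overlap (left, 4 WT samples; right, 3 Smchd1-null samples; black bars, mean and SD; symbols as in the plot of levels). Sema3a is at 13.5 to 19.7 CPM in Smchd1-null and 18.4 to 36.4 CPM in WT samples, Ephb6 at 3.90 to 6.52 and 1.11 to 3.42 CPM, and the single high WT point of Plxnb3 (60.4 CPM) is WT replicate 4.

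The other Eph receptors gave no call. Ephb2, a receptor of ephrin-B ligands in axon guidance and synapses, was at 3.42, 2.44, 3.15 and 7.55 CPM in WT and 5.63, 6.79 and 7.58 CPM in Smchd1-null samples. WT replicate 4 was inside the range of the Smchd1-null samples and the other WT samples were below it (0.86, SE 0.33, adjusted p = 0.319). Ephb3, which has the highest EphB level per kb in WT, had 18.4 ± 3.76 CPM in WT and 17.7 ± 0.92 CPM in Smchd1-null samples, with a 95% interval of the log2 fold change from -0.42 to 0.43. Epha5, the main EphA receptor, had 81.3, 86.8, 70.0 and 97.1 CPM in WT and 73.6, 68.0 and 73.4 CPM in Smchd1-null samples, ranges that overlap (-0.17, SE 0.13, adjusted p = 0.543). Epha2 was at 5.87 ± 1.52 and 7.32 ± 0.50 CPM (0.27, SE 0.27, adjusted p = 0.650). Epha4, Epha7, Ephb1 and Ephb4 had adjusted p-values between 0.528 and 0.626, with log2 fold changes from -0.45 for Epha7 to 0.29 for Ephb1. Summed over the 14 Eph receptors, the level was 150.3 ± 20.7 CPM in WT and 143 ± 6.23 CPM in Smchd1-null samples.

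All 6 tested ephrins had a fitted log2 fold change above 0, with a median of 0.41, and none passed the threshold. Within batches the direction was less uniform: Efna4 was lower in Smchd1-null samples in both and Efnb1 in batch 2. The other tested ephrins were higher in both. Efna2, the highest ephrin, had 19.3, 25.1, 16.0 and 18.3 CPM in WT and 28.5, 30.3 and 22.7 CPM in Smchd1-null samples. Only Smchd1-null replicate 3 and WT replicate 2 overlapped, and they were sequenced in different batches (0.59, SE 0.18, adjusted p = 0.284). Efna3 had 3.42, 8.66, 6.29 and 9.95 CPM in WT and 10.9, 11.7 and 9.96 CPM in Smchd1-null samples, so that the genotypes were barely separated, by WT replicate 4 and Smchd1-null replicate 3 (0.88, SE 0.29, adjusted p = 0.288). Efna4, which lies 10425 bases from Efna3 on the same strand of chromosome 3, had 8.12 ± 2.68 CPM in WT and 8.51 ± 4.76 CPM in Smchd1-null samples (0.33, SE 0.38, adjusted p = 0.688). Its difference was -0.11 log-CPM within batch 1 and -1.08 within batch 2, against the sign of the fitted value. Efnb1 had 19.7 ± 2.28 and 21.7 ± 4.80 CPM (0.23, SE 0.19, adjusted p = 0.582), with differences of 0.18 log-CPM within batch 1 and -0.09 within batch 2. Efnb2 and Efnb3 had log2 fold changes of 0.04 and 0.48 with adjusted p-values of 0.935 and 0.413. The summed ephrin level was 75.8 ± 8.50 CPM in WT and 91.9 ± 14 CPM in Smchd1-null samples, or 121% of WT, and the sums of the genotypes overlapped.

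Among the semaphorins that stay on the membrane, Sema6d was the most expressed. It had 127, 100.2, 104 and 130.3 CPM in WT and 87.8, 82.0 and 98.7 CPM in Smchd1-null samples. Every Smchd1-null sample was below every WT sample (-0.38, SE 0.13, 95% interval -0.66 to -0.11, adjusted p = 0.291). The difference was -0.24 log-CPM within each batch. Sema6a, the next in this class by level, had 42.0 ± 9.46 CPM in WT and 35.7 ± 4.45 CPM in Smchd1-null samples (-0.26, SE 0.17, adjusted p = 0.471). Sema6b and Sema6c, at 4.80 and 3.74 CPM in WT, had fold changes of 0.15 and 0.46 with adjusted p-values of 0.888 and 0.534. The class 6 sum was 166 ± 23.9 CPM in WT and 134 ± 12.1 CPM in Smchd1-null samples, 80.9% of WT.

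The remaining semaphorins differed little against their spread. Sema5b, a transmembrane protein with thrombospondin repeats, had 51.4 ± 7.60 CPM in WT and 43.0 ± 6.76 CPM in Smchd1-null samples (-0.23, SE 0.17, adjusted p = 0.532). Sema5a of the same class varied most among Smchd1-null samples, with 13.5, 11.3 and 30.1 CPM against 9.99 to 21 CPM in WT (-0.27, SE 0.29, adjusted p = 0.673). Its difference was 0.30 log-CPM within batch 1 and 0.81 within batch 2, against the sign of the fitted value. Sema4c, a ligand of plexin-B2, had 16.8 ± 1.06 and 15.3 ± 4.69 CPM (-0.06, SE 0.21, adjusted p = 0.914). Sema4b and Sema4g had fold changes of 0.05 and 0.35 with adjusted p-values of 0.927 and 0.50. For Sema4b the difference was -0.21 log-CPM within batch 1 and -0.43 within batch 2, also against the fitted sign. Sema7a, the only semaphorin with a lipid anchor, was at 2.20 ± 0.88 and 2.67 ± 0.56 CPM (0.22, SE 0.39, adjusted p = 0.816). Its receptor Plxnc1 was at 11.2 ± 3.12 and 12 ± 3.12 CPM (-0.08, SE 0.27, adjusted p = 0.910), and Plxnd1, the receptor of Sema3e, at 5.23 ± 1.84 and 4.04 ± 1.3 CPM (-0.18, SE 0.33, adjusted p = 0.821). Plxnc1 differed by 0.58 log-CPM within batch 1 and 0.13 within batch 2, again against the fitted sign.

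None of the 3 plexin-B receptors passed the threshold. Plxnb2 had 168, 204, 159 and 132 CPM in WT and 173, 173 and 156 CPM in Smchd1-null samples, all of the latter inside the WT range (0.04, 95% interval -0.23 to 0.31, adjusted p = 0.906). Plxnb1, a receptor of Sema4d, had 68.6, 67.5, 58.5 and 81.5 CPM in WT and 55.6, 56.8 and 56.3 CPM in Smchd1-null samples. The genotypes did not overlap and the Smchd1-null samples lay close together, but the fold change was small (-0.23, SE 0.13, adjusted p = 0.425). Plxnb3, a receptor of Sema5a, had 38.3, 24.0, 19.1 and 60.4 CPM in WT and 16.1, 14.5 and 17.1 CPM in Smchd1-null samples. All Smchd1-null samples were below all WT samples, and the WT samples spread widely (-0.94, SE 0.28, 95% interval -1.54 to -0.34, adjusted p = 0.275). WT replicate 4, the highest WT sample for Plxnb3, was also the sample with the highest sum of oligodendrocyte lineage markers, at 768 CPM, and these markers had a median fold change of -0.58 between genotypes. Their part in the Plxnb3 values was not tested. Without WT replicate 4 the log2 fold change of Plxnb3 was -0.77 (adjusted p = 0.389), and the other 3 WT samples were still above the Smchd1-null samples.

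**Figure D4:**
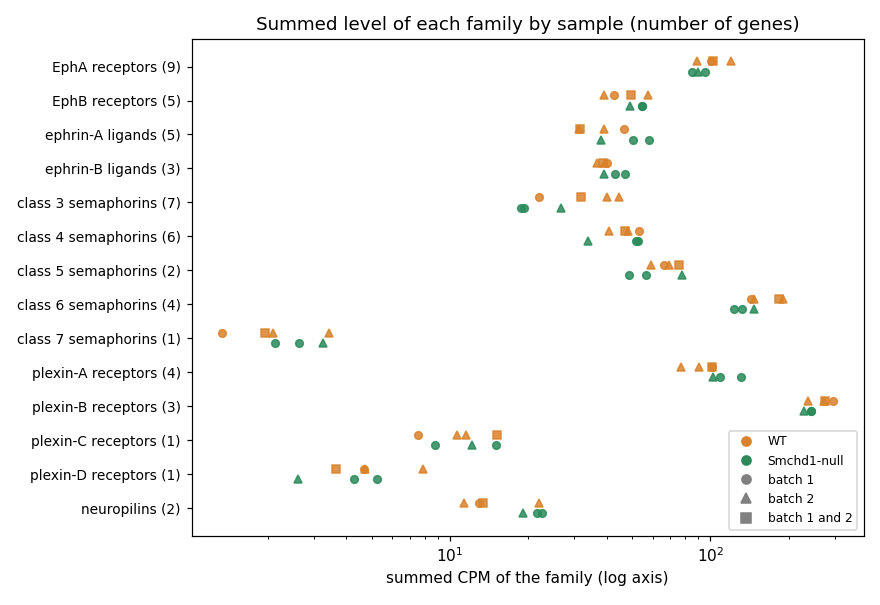
Summed CPM of each guidance gene family in every sample, on a log axis, with the number of genes in brackets (symbols as in the plot of levels). The plexin-B sum is the highest at 270.3 CPM in WT and 239 CPM in Smchd1-null samples, and the genotypes overlap in every family but plexin-A, which is at 77.0 to 101.6 CPM in WT and 102.0 to 131.0 CPM in Smchd1-null samples and overlaps without TMM scaling.

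Smchd1 is best known for its part in silencing the inactive X chromosome, so the 3 X-linked members were also read together. Efnb1, Plxna3 and Plxnb3 had log2 fold changes of 0.23, 0.25 and -0.94. Plxna3, a class 3 semaphorin receptor, had 30.3, 25.8, 25.2 and 21.3 CPM in WT and 37.5, 29.8 and 23.2 CPM in Smchd1-null samples (SE 0.18, adjusted p = 0.538). It lies 0.557 Mb from Plxnb3, the only X-linked member with genotypes that did not overlap. Efnb1 had 21.5, 21.1, 19.7 and 16.5 CPM in WT and 21.8, 26.5 and 16.9 CPM in Smchd1-null samples. Xist, the RNA that coats the inactive X, had between 0 and 2 counts in each of the 7 samples.

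Fold changes in these data ran with gene length, and guidance genes are long. The median deposited length was 7301 bases for the 39 tested members and 4160 bases for all tested genes. Across all 13305 genes, which are not independent, Spearman's rho of length with the log2 fold change was -0.38, and across the 39 members it was -0.27. The median fold change of all genes was 0.22 in the shortest of 5 equal groups by length and -0.14 in the longest, where 19 of the 39 members lay with a median of -0.08. Ephrins are the short genes of the group, with a median of 2808 bases for those tested, and Sema3a is one of the long ones at 13868 bases. With each sample's length trend removed, the fold change of Sema3a was -0.73 (adjusted p = 0.301) and that of Ephb6 was 1.53 (adjusted p = 0.267), so neither call at 0.25 was kept. Ephb6 kept its call where the batch covariate was added to this correction (1.72, adjusted p = 0.139), and Sema3a did not (-0.57, adjusted p = 0.254). The part of length in the single values was not otherwise tested.

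**Figure D5:**
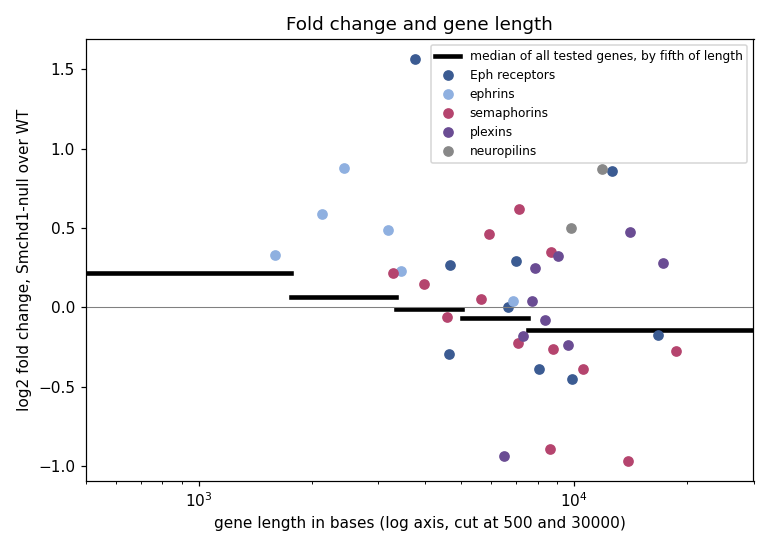
Log2 fold change of Smchd1-null over WT against deposited gene length in bases (log axis) for the 39 tested guidance genes, coloured by protein family, with black bars at the median of all tested genes in each of 5 equal groups by length. The bars go from 0.22 in the shortest genes to -0.14 in the longest; the ephrins (light blue) are at the short end and Sema3a (-0.96) at the long end.

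Genes that act with these ligands and receptors or downstream of them were read from lists of pathway members. Of 23 genes of Eph and ephrin signalling, all tested, none passed an adjusted p of 0.25 (1.08% of all genes) and 1 had an unadjusted p under 0.05 in limma's fit (13.9% of all genes). This was Inppl1, the phosphatase SHIP2 that binds EphA2, with 10.8 ± 1.84 CPM in WT and 7.33 ± 1.45 CPM in Smchd1-null samples (-0.67, SE 0.24, adjusted p = 0.297). Adam10, a protease that cleaves ephrins, had a log2 fold change of -0.27 (adjusted p = 0.390), and Chn1, a Rac regulator downstream of EphA4, -0.60 (adjusted p = 0.406). The median over this list was -0.11.

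Of 33 genes of semaphorin, plexin and neuropilin signalling, 28 were tested and 1 passed an adjusted p of 0.25, being lower (0.609% of all genes). Mical1, a member of the family of oxidoreductases that act on actin downstream of plexins, fell from 2.91 ± 1.18 CPM in WT to 0.988 ± 0.866 CPM in Smchd1-null samples, where replicates 1 and 2 had 2 counts each (-2.17, SE 0.56, adjusted p = 0.233). Smchd1-null replicate 3, at 1.95 CPM, was above WT replicate 2, at 1.55 CPM. The call was lost without Smchd1-null replicate 1 (-2.11) or replicate 2 (-0.98), and with the batch covariate the fold change was -1.19 (adjusted p = 0.561). Without WT replicate 1, 3 or 4 the gene had too few counts to be tested. Its relative Mical2 had 34.4 ± 9.05 CPM in WT and 49.3 ± 3.04 CPM in Smchd1-null samples, with no overlap (0.60, SE 0.18, adjusted p = 0.275). Crmp1, a cytoplasmic mediator of Sema3a signals, had 51.0, 61.5, 52.7 and 62.6 CPM in WT and 80.3, 80.3 and 63.2 CPM in Smchd1-null samples, also with no overlap (0.49, SE 0.14, adjusted p = 0.257). At an unadjusted p under 0.05 there were 3 genes higher (7.11% of all genes) and 4 lower (6.74%), and the median over the list was -0.05.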

How the data were processed

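Long reads of 4 WT and 3 Smchd1-null NSC samples were counted per gene. The authors base-called reads with Guppy, aligned them to mm10 with minimap2 (2.17 in the submitters' processing notes) and made the deposited counts per gene with featureCounts on Gencode M23. The deposited files hold raw counts and a gene length. Strand is not stated, and reads of overlapping genes are uncertain. Symbols and coordinates (GRCm38, 1-based) came from Gencode M21: 55154 of 55335 identifiers matched with the version ignored.

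Genes were filtered with filterByExpr, scaled by TMM and fitted with limma's voomWithQualityWeights by genotype over 13305 genes, two-sided, with Benjamini-Hochberg adjustment over all of them, as in the study's methods, with thresholds of 0.25 and 0.05. Sample weights ranged from 0.45 to 2.03, so a fitted fold change can differ from the ratio of means. Log-CPM used a prior count of 2, and the values behind non-overlap and within-batch differences are log-CPM. A floor of 3 counts is 0.399 to 1.13 CPM, for counting error only. The pipeline ran in R 4.3.3 with DESeq2 1.42.0, edgeR 4.0.16 and limma 3.58.1, and was tested on simulated data.

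The genes, pathway lists, markers and tests were chosen with earlier results of these data known. Values are given for Smchd1, Xist and, among the guidance genes, those past an adjusted p of 0.25 or an unadjusted p of 0.05, non-overlapping, highest in their family, X-linked, removed by the filter or with a WT sample apart. From each pathway list, genes past 0.25 and the 3 with the smallest p are given. Other family members, Aldoc, Map2 and Dcx are given as context. Alternatives were other tests, normalisations and filters, batch, block and length terms, and each sample left out. The batch term assumed equal parts of both batches for WT replicate 1, since the sources do not give its share. The deposited columns hold no comparisons.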

Additional observations from a re-analysis of the deposited data

Results flagged for a closer look

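Among the 39 tested guidance genes, 3 had a WT sample far from the other 3, judged by the gap to the nearest sample divided by the range against Dixon's critical value for 4 samples. Chance gives about 1 in 20 such groups, or 1.95 of 39. The sample was WT replicate 3 each time. Epha2, an EphA receptor, was at 3.10 log-CPM there and between 2.41 and 2.52 in the other WT samples. Sema5b was at 5.34 log-CPM there and between 5.76 and 5.83 in the others. Sema6b was at 0.998 log-CPM, from 6 counts, and between 2.52 and 2.78 in the others. Smchd1-null samples, of which there are 3, were not examined in this way, and none of these genes passed the threshold between genotypes.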

How the results depend on the processing

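At an adjusted p under 0.25 the 2 guidance genes became 0 with edgeR's quasi-likelihood test (6 at an unadjusted p under 0.05, here in brackets), 1 with DESeq2 (Plxnb3), 0 without sample weights (6), 0 with all genes that had a count (9), 4 with at least 10 counts in every sample, 0 with the batch covariate and without WT replicate 1 (6), and 0 with the length trend removed (9). The cause of these changes was not tested. Of all genes, 5.07% had an unadjusted p under 0.05 with edgeR, 5.03% without weights and 5.19% with all counted genes. The share was 6.6% with batch and without WT replicate 1, and 9.49% with the length trend removed. Leaving out each sample gave 0 to 11 guidance genes, with 5 to 11 at an unadjusted p under 0.05 (3.28% to 21.6% of all genes) and 4 to 9 that did not overlap. With at least 10 counts in every sample 3 guidance genes did not overlap, from 32 tested. Non-overlap over all genes was counted only in the main fit (5.53%). The median fold change of 0.15 was 0.0425 without weights, 0.0161 with the batch covariate and 0.0276 to 0.178 with a sample left out. Over all genes, the 144 calls became 8 with edgeR, 32 with DESeq2, 10 without weights, 22 with all counted genes, 346 with the stricter filter, 74 with batch, 61 with the length trend removed and 1 to 3153 with a sample left out. Of 720 alternative values, 562 were taken as unchanged. Fold changes were judged by direction and side of the threshold, medians by their spread between samples, and counts by a fixed factor. Smchd1 kept its call in all 20 alternatives, and Sema3a (20 of 20) and Ephb6 (19 of 19) kept their direction and an unadjusted p under 0.05. An adjusted p under 0.25 was kept in only 6 of 20 alternatives for Sema3a and 8 of 19 for Ephb6. Unc5b kept its direction in 20 of 20 and an adjusted p under 0.25 in 8, and Mical1, tested in 15, in 4.

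Samples with the same replicate number did not deviate together in every pair (Pearson's r over genes of -0.04, 0.36 and 0.09), and the sources do not say that numbers pair samples. With the replicate number as a block, 1 guidance gene and 129 genes in all passed an adjusted p of 0.25. With the block and the length trend removed, 4 and 177 did.

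Directions turned only for genes far from the threshold. Epha5 was 0.011 with the length trend removed. Ephb3 was -0.069 with edgeR, -0.070 with DESeq2, -0.068 without weights, -0.022 with library size alone, -0.0065 with all counted genes, -0.080 with batch, -0.072 with batch without WT replicate 1, -0.023 with the block, -0.0062 with length and block, and -0.056 with length and batch. Plxnb2 was -0.119, -0.123, -0.111, -0.059 and -0.090 in the last 5 of these settings. Plxnc1 was 0.069 with edgeR, 0.068 with DESeq2, 0.020 without weights, 0.093 with all counted genes, 0.214 with batch, 0.331 with batch without WT replicate 1, 0.110 with the block, 0.066 with length, 0.168 with length and block, and 0.250 with length and batch. Sema6b was -0.238, -0.233 and -0.123 in the first 3 of these, then -0.328 and -0.245 with batch, with and without WT replicate 1, -0.232 with the block, -0.264 with length and block, and -0.335 with length and batch. Leaving out a sample gave -0.081 to 0.32 for Efnb1, -0.20 to 0.086 for Ephb3, -0.020 to 0.12 for Plxnb2, -0.22 to 0.22 for Plxnc1, -0.39 to 0.037 for Sema4c and -0.48 to 0.38 for Sema6b. Genes near 60 counts in all are limited by depth.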

Other observations

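Other guidance systems were read from a list of 26 genes of netrin, Slit and related signalling, of which 18 were tested. Unc5b, a netrin receptor of axon repulsion, passed an adjusted p of 0.25 and was lower (0.609% of all genes). It had 37.1, 33.3, 34.1 and 49.0 CPM in WT and 20.6, 22.4 and 26.8 CPM in Smchd1-null samples, with every Smchd1-null sample below every WT sample (-0.71, SE 0.16, adjusted p = 0.176, limma). The difference was -0.62 log-CPM within batch 1 and -0.60 within batch 2. The call held without WT replicate 2 or Smchd1-null replicate 3, fits that called 2924 of 12891 and 3153 of 13395 genes. It was lost without any one of the other samples, where the fold change was between -0.76 and -0.61. Robo1, a Slit receptor, had 18.6, 8.0, 11.5 and 35.5 CPM in WT and 7.13, 7.05 and 13.2 CPM in Smchd1-null samples (-0.93, SE 0.35, adjusted p = 0.316). Its relative Robo3 had 1.13 ± 0.82 CPM in WT and 2.72 ± 1.44 CPM in Smchd1-null samples (1.52, SE 0.56, adjusted p = 0.305). At an unadjusted p under 0.05 there were 2 genes higher (7.11% of all genes) and 3 lower (6.74%) in this list, with a median of -0.14 over the tested genes.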
